A study of Saccharomyces cerevisiae with 2 samples.

Results

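The genes described here encode the small-subunit processome and further assembly factors of the 40S ribosomal subunit in budding yeast, Saccharomyces cerevisiae. They were chosen by name and function, with no measured value in the rule, but with earlier results of these data known. The list holds the proteins called UTP, the core proteins of box C/D particles, Imp3, Imp4, Mpp10 and helicases. It also holds other factors of 18S rRNA processing, of which the rule names NSR1 and RRP12. All 46 genes of the list were found among the 6868 features of the arrays. None of the 46 is listed at exactly 0 on either array, so each has a value at both times.

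The processome is a large particle of the nucleolus that forms on the nascent ribosomal RNA precursor while RNA polymerase I is still transcribing it. Its protein subcomplexes and the U3 small nucleolar RNA fold the precursor, guide its cleavage and release the 18S rRNA that becomes the RNA of the 40S subunit. Most of these proteins are essential for growth, and their genes belong to the ribosome biogenesis regulon, which yeast is known to repress in many kinds of stress.

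The study measured total RNA of the laboratory strain BY4742, haploid and of alpha mating type, with the genotype labelled WT his3kan, grown in shaken batch culture in synthetic complete medium at 30C. NaCl was brought to 0.7 M, and cells were taken 30 min or 60 min later. Each of the 2 arrays, NimbleGen arrays that tile the yeast genome, compared salt-treated cells with unstressed cells of the same genotype, and there is 1 array per time. Treated cells carry the same dye on both arrays. Dye and treatment therefore cannot be told apart, and nor can salt and the time spent in culture, since by the titles the unstressed cells are those from before salt. The labels name the unstressed cells differently on the arrays, and whether they are the same RNA is not stated. There are no replicates, so no value below has a replicate error and no test was made. Genes are described by size, and at least 2-fold lower means a log2 ratio of -1 or less. No source used here gives the log base, which was taken as 2, so every fold rests on that assumption. The number of arrays limits the precision. A ratio gives no level, so the strain and mating type could not be checked against marker genes, and levels were not compared between genes.

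No label gives the direction of the deposited ratio. It was taken as likely salt over unstressed because all 10 reporter genes of osmotic stress in a list used only for this were positive at both times. They ran from 2.23 for ENA1, a sodium pump, to 8.32 for STL1, a glycerol transporter, at 30 min. At 60 min ENA1 had the lowest value of the 10, 0.34. If the ratio ran the other way, "lower" below would read "higher" throughout. The log2 ratios have a median of 0 over all features at each time, so lower is relative to the other features on the array. The RNA came from whole cultures, in which a lower level in every cell and a loss of the transcript from part of the cells cannot be told apart.

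At 30 min the processome genes were lower almost as a block. The ratio was negative for all 46, against 3406 of all 6868 features. Of the 46 genes 44 (95.7%) were at least 2-fold lower, against 17.3% of all features. None was at least 2-fold higher, against 15.8% of all features. The median log2 ratio was -3.17 (8.99-fold lower), with an interquartile range over the genes from -3.67 to -2.69, whereas the middle of all features spanned -0.64 to 0.63. Of the 46 genes 28 were at least 8-fold lower, a size that 2.24% of all features reached. The 100 lowest features of the array held 18 of the genes, and the 200 lowest held 33. The cumulative plot of both sets shows how little they overlap at 30 min.

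**Figure D1:**
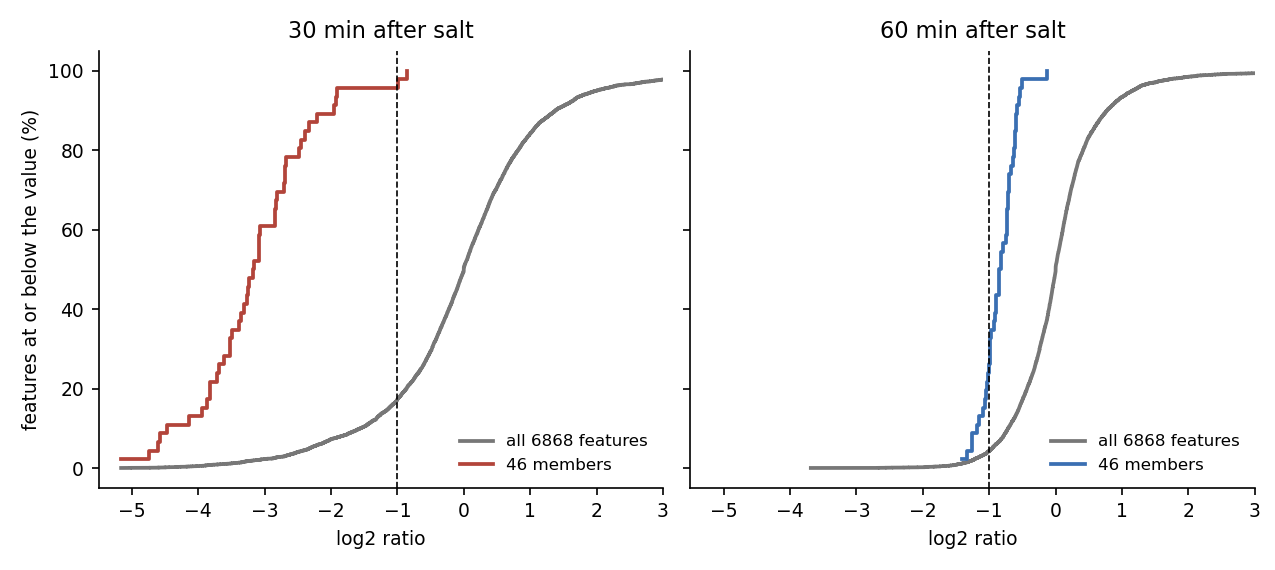
Share of features (y axis, percent) at or below a log2 ratio (x axis, cut at 3) at 30 min (left) and 60 min (right), for the 46 processome and 40S assembly genes and for all 6868 features. The dashed line marks 2-fold lower: at 30 min 95.7% of the genes and 17.3% of all features lie at or left of it, at 60 min 26.1% and 4.32%.

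The 7 other processome and pre-40S factors act at different stages of assembly, and the lowest value of the whole group was among them. UTP23 and HCA4, described below, ranked 3 and 4 from the lowest of the group at 30 min, between RRP12 and RRP5. NSR1 (YGR159C), a nucleolin-like protein of the nucleolus, had a log2 ratio of -5.16 at 30 min (35.8-fold lower), the lowest of all 6868 features, and -1.33 at 60 min. RRP12 (YPL012W), which helps export the pre-40S particle from the nucleus, had -4.74 at 30 min and -1.15 at 60 min. RRP5 (YMR229C), an RNA-binding protein needed for both subunits, had -4.46 and -1.01. These genes were past 2-fold at both times. KRR1 (YCL059C), a KH-domain protein of the processome, had -3.94 at 30 min and -1.26 at 60 min. NOP14 (YDL148C), which works with Noc4 and Emg1, had -3.52 and -0.91. ENP1 (YBR247C), which stays with the particle from the nucleolus to the cytoplasm, had -3.50 and -0.92. SOF1 (YLL011W), a WD-repeat protein linked to U3, was the least changed of these 7, with -2.39 and -0.82. NSR1, RRP12, RRP5 and KRR1 were thus at least 2-fold lower at both times, and NOP14, ENP1 and SOF1 only at 30 min by this threshold.

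**Figure D2:**
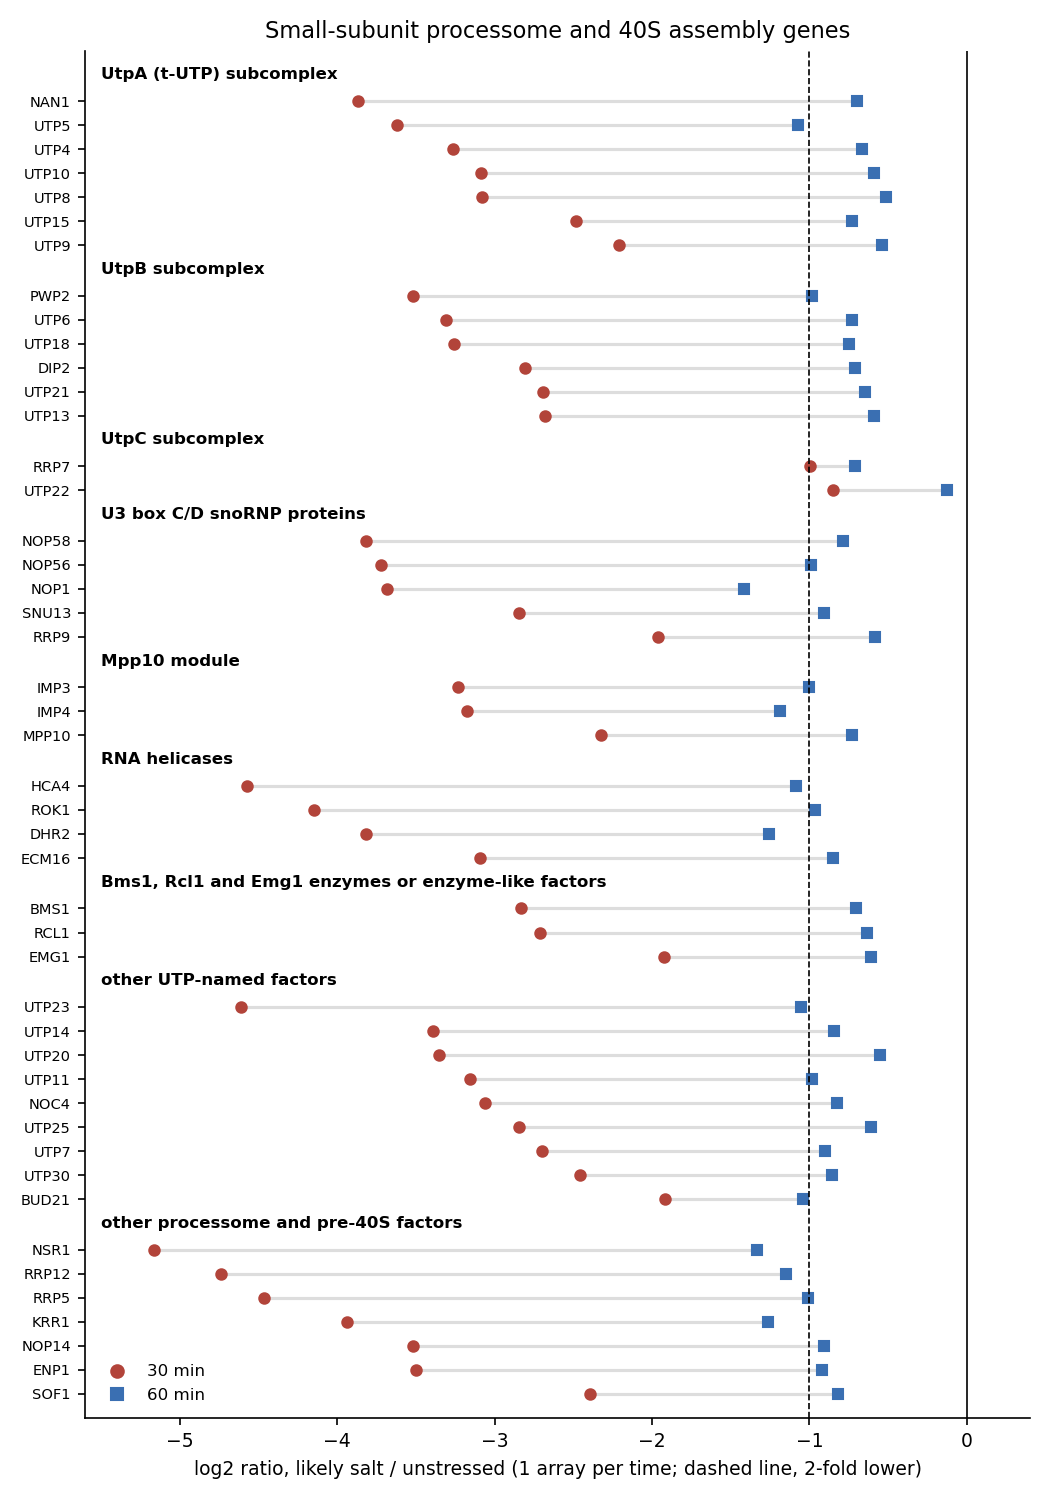
Log2 ratio (x axis, likely salt over unstressed) of each of the 46 genes at 30 min (circles) and 60 min (squares), grouped by subcomplex or role; each point is 1 array and the dashed line marks 2-fold lower. The 2 UtpC genes, UTP22 and RRP7, stand right of the line at 30 min, and NSR1 is lowest at 30 min with -5.16.

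The 4 RNA helicases, which use ATP to remodel the precursor and to release small nucleolar RNAs from it, had a median of -3.98 at 30 min and -1.03 at 60 min. HCA4 (YJL033W), also called Dbp4, a DEAD-box helicase needed for the release of U14, had -4.57 at 30 min (23.8-fold lower) and -1.09 at 60 min. ROK1 (YGL171W), the DEAD-box helicase that frees snR30, had -4.15 and -0.97. The DEAH-box helicases were less low at 30 min. DHR2 (YKL078W) had -3.82 at 30 min and -1.26 at 60 min. ECM16 (YMR128W), also called Dhr1, which unwinds U3 from the precursor, had -3.09 and -0.85. At 60 min DHR2 was the lowest of the 4 and HCA4 next, so the order by family seen at 30 min was not kept.

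UTP23 (YOR004W), a nucleolar protein that takes part in snR30 release, had -4.61 at 30 min (24.4-fold lower) and -1.05 at 60 min. At 30 min it was the lowest of the genes named UTP. ROK1 and UTP23, both tied to snR30, stood at ranks 27 and 7 from the lowest of all features at 30 min. The RNA they act on did not share this size: snR30 had -0.20 at 30 min and -0.46 at 60 min.

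The box C/D proteins bind U3 and the other small nucleolar RNAs that guide 2′-O-methylation. NOP1 (YDL014W), the methyltransferase known as fibrillarin in animals, had -3.68 at 30 min (12.8-fold lower) and -1.41 at 60 min, the lowest of the 46 genes at the later time. The paralogous scaffold proteins NOP56 (YLR197W) and NOP58 (YOR310C) had -3.72 and -3.82 at 30 min. At 60 min NOP56 had -0.99 and NOP58 had -0.79. The core trio was thus within 0.13 log2 units at 30 min and spread over 0.63 at 60 min. SNU13 (YEL026W), which binds the kink-turn of these RNAs and also belongs to the U4 spliceosomal particle, had -2.85 and -0.90. RRP9 (YPR137W), the protein specific to U3, had -1.96 and -0.58, the value nearest to 0 of the 5 genes at each time.

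UtpA, also called t-UTP, is the first subcomplex to bind the precursor and is known for a link to rDNA transcription. At 30 min its 7 genes were all past 2-fold (median -3.09), from NAN1 (YPL126W) with -3.87 to UTP9 (YHR196W) with -2.21. UTP5 (YDR398W) had -3.62, UTP4 (YDR324C) -3.27, UTP10 (YJL109C) -3.09, UTP8 (YGR128C) -3.08 and UTP15 (YMR093W) -2.48. At 60 min the median of UtpA was -0.67, and UTP5 alone passed 2-fold, with -1.07. UTP8 had -0.51 and UTP9 -0.54, the highest values at 60 min among the 46 genes after UTP22. NAN1 went from the lowest value of UtpA at 30 min to -0.70 at 60 min.

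UtpB, a scaffold rich in WD-repeat proteins that contacts U3 and the 5′ end of the precursor, was the more even of these large subcomplexes. Its 6 genes lay between -3.52 for PWP2 (YCR057C) and -2.68 for UTP13 (YLR222C) at 30 min, with a median of -3.03. UTP6 (YDR449C) had -3.31, UTP18 (YJL069C) -3.26, DIP2 (YLR129W) -2.81 and UTP21 (YLR409C) -2.69. At 60 min all 6 were within 2-fold, from -0.98 for PWP2 to -0.59 for UTP13 (median -0.72). PWP2 and UTP13 therefore held the ends of the range at both times.

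UtpC departed from the other subcomplexes. UTP22 (YGR090W) had -0.85 at 30 min (1.81-fold lower) and -0.12 at 60 min. RRP7 (YCL031C) had -0.99 at 30 min, just short of 2-fold, and -0.71 at 60 min. They were the only members of the 46 within 2-fold at 30 min, 0.92 log2 units above the next gene, BUD21. Utp22 and Rrp7 are also known from a complex with casein kinase 2 and Ifh1, a coactivator of ribosomal protein genes. The other subunits of UtpC were looked up after these values were seen. The casein kinase 2 genes were all near 0: CKA1 had -0.21 at 30 min and -0.42 at 60 min, CKA2 -0.35 and -0.16, CKB1 -0.28 and -0.18, and CKB2 0.11 and 0.10. RRP36, the remaining subunit, had -3.06 and -1.47, which is in the range of the rest of the processome at 30 min and below all 46 genes at 60 min. UtpC was thus split, with RRP36 at least 2-fold lower at both times and 6 genes within 2-fold at both times. Most features were within 2-fold too, 4595 of 6868 at 30 min and 6113 at 60 min.

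The Mpp10 module helps U3 pair with the 18S region. IMP3 (YHR148W) had -3.23 at 30 min and -1.0003 at 60 min, and IMP4 (YNL075W) had -3.18 and -1.19. MPP10 (YJR002W), which gives the module its name, had -2.32 and -0.73. IMP3 and IMP4 were thus at least 2-fold lower at both times, and MPP10 was nearer to 0 than either at both times.

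The GTPase gene BMS1 (YPL217C) and RCL1 (YOL010W), whose product binds Bms1, had -2.84 and -2.71 at 30 min and -0.70 and -0.63 at 60 min. EMG1 (YLR186W), a methyltransferase that modifies a pseudouridine of 18S rRNA, had -1.92 and -0.61. Its partners in the particle, NOC4 (YPR144C) and NOP14, were lower at 30 min, NOC4 with -3.06 and -0.82 at 60 min. BMS1, RCL1, EMG1, NOC4 and NOP14 were all past 2-fold at 30 min and within it at 60 min.

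The remaining UTP genes covered most of the range of the group. UTP14 (YML093W), the activator of Dhr1, had -3.39 at 30 min and -0.85 at 60 min. UTP20 (YBL004W), the longest of the 46 genes, had -3.35 and -0.55. UTP11 (YKL099C) had -3.16 and -0.98, UTP25 (YIL091C) had -2.84 and -0.61, and UTP7 (YER082C), a WD-repeat protein, had -2.70 and -0.90. UTP30 (YKR060W), a relative of a 60S ribosomal protein, had -2.46 and -0.86. BUD21 (YOR078W), also called UTP16, had -1.91 and -1.04. Counted from the lowest, BUD21 was number 44 of the 46 genes at 30 min and number 10 at 60 min.

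At 60 min all 46 genes still had negative log2 ratios, against 3400 of all 6868 features, but most of the 46 lay within 2-fold. Of the 46 genes 12 (26.1%) were at least 2-fold lower, against 4.32% of all features, and none was at least 2-fold higher, against 6.67%. The median was -0.84 (1.78-fold lower), with an interquartile range from -0.997 to -0.67. The threshold runs through the bulk of the group here: IMP3 at -1.0003 was the last inside it and NOP56 at -0.99 the first outside. At 1.5-fold, 41 of the 46 genes were lower, against 13.8% of all features. The 100 lowest features at 60 min held 1 of the genes, NOP1, and the 1000 lowest held 42.

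The spread of the whole 60 min array was also smaller, with an SD over all features of 0.71 against 1.33 at 30 min. With the 60 min values multiplied by 1.88 to bring both SDs level, 44 of the 46 genes were at least 2-fold lower, against 15.9% of all features, and the median was -1.57. The number of genes past 2-fold at 60 min thus depends on the scale of the array. The median stayed nearer to 0 than at 30 min on either scale.

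The 60 min log2 ratio was higher than the 30 min one for all 46 genes, by a median of 2.25. Over all 6868 features the difference had a median of 0.001 and was negative for 3397. The 60 min ratio was higher by at least 1 for 43 of the 46 (93.5%), against 11.6% of all features. The exceptions were BUD21 with 0.88, UTP22 with 0.73 and RRP7 with 0.28. The largest differences were those of NSR1 with 3.83, RRP12 with 3.59 and UTP23 with 3.56. On the rescaled array 44 of the 46 differences were positive, RRP7 having the lowest, -0.34, and the median was 1.54. The matching count over all features was not made on that scale. Both ratios may share the unstressed RNA, and no error can be given for a difference of 1 array and 1 array.

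Set against its own 30 min value, a median of 25.8% of the log2 ratio was left at 60 min, with an interquartile range from 22.9% to 31.4%. Over all 1186 features at least 2-fold lower at 30 min the median was 31.6%, with a wider interquartile range from 21.2% to 49.0%. That set includes 44 of the 46 genes and is not matched to them in its 30 min values. Of the 1186 features 154 were at least 8-fold lower at 30 min, against 28 of the 46 genes. These shares scale with the 60 min array: with its SD brought level with that of the 30 min array the medians were 48.5% for the 46 genes and 59.4% for the 1186 features. On the deposited scale RRP7 kept 71.5% and BUD21 54.2%, the largest shares of the 46, while UTP22 kept 14.5%, the smallest. On the rescaled array RRP7 had 135% and BUD21 102%, so neither was nearer to 0 at 60 min than at 30 min there, and UTP22 had 27.3%. On the deposited scale UtpA kept a median of 20.4%, UtpB 23.6%, the helicases 25.6%, the box C/D proteins 29.8% and the Mpp10 module 31.4%. The ranges of these groups overlapped, with 16.7% to 29.6% in UtpA and 20.6% to 38.4% in the box C/D proteins, while every gene of the Mpp10 module, at 31.0% or more, was above every gene of UtpA. In the plot of each feature at both times the genes form a flat band well above the line of equal values.

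**Figure D3:**
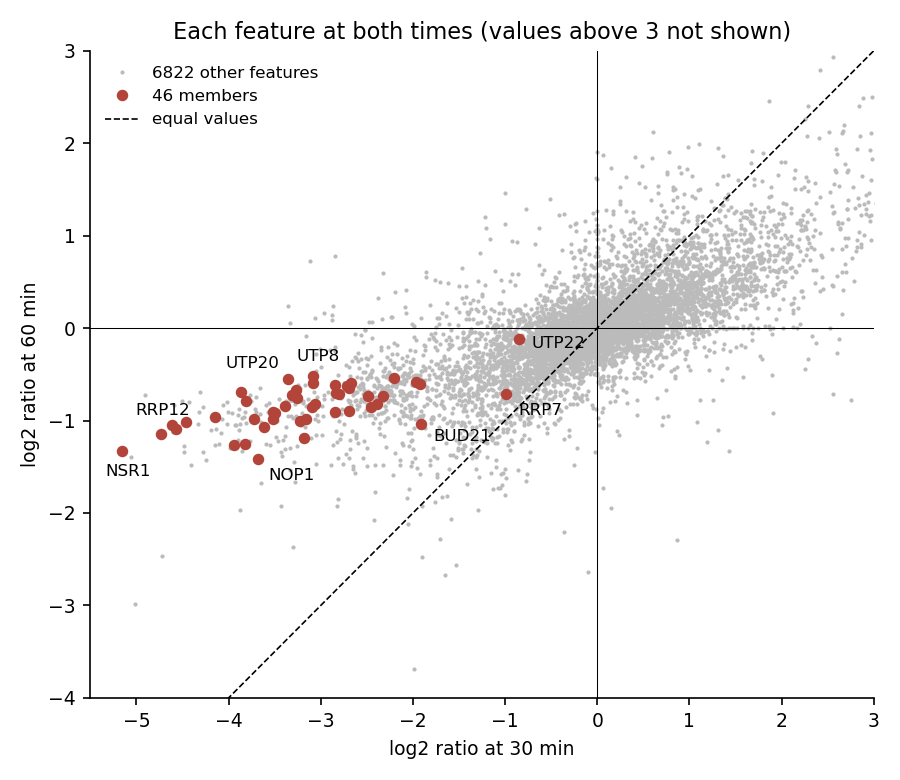
Log2 ratio at 30 min (x axis) and 60 min (y axis) of the 46 genes and of the 6822 other features, 1 point per feature; values above 3 are not drawn and the dashed line marks equal values. Every one of the 46 genes lies above the line, with RRP7, 0.28 above it, the closest.

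The values were also set beside gene length, which the choice of genes did not use. Lengths in the reference gene table ran from 381 bases for SNU13 to 7482 bases for UTP20. The 23 shorter genes had a median of -3.16 at 30 min and -0.90 at 60 min, and the 23 longer ones -3.26 and -0.71. On the deposited scale the longer genes kept a median of 24.0% of their 30 min value and the shorter ones 31.0%. Across the 46 genes, Pearson's r between log2 length and the log2 ratio was -0.14 at 30 min and 0.35 at 60 min (Spearman's rho -0.13 and 0.35). Over 5928 protein-coding features it was -0.03 at both times. The genes share the array and its normalization, a tiled array holds more probes for a longer gene, and the part of length in the result was not tested.

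Other factors of the same pathway were taken from a list of 38 genes of 18S rRNA processing and 40S maturation outside the 46. Of these 32 were at least 2-fold lower at 30 min, 6 were within 2-fold and none was higher, with a median of -2.64. At 60 min 9 of the 38 were at least 2-fold lower (median -0.75), against 4.32% of all features. With the 60 min array rescaled, 26 of the 38 were, against 15.9% of all features. The lowest at 30 min were MRD1, an RNA-binding processome factor, with -4.34 and -1.04 at 60 min, and BFR2, with -4.27 and -0.86. The highest were PFA1, a cofactor of the helicase Prp43, with 0.30 and 0.07, and HRR25, a casein kinase that acts on the pre-40S particle and in other processes, with 0.21 and -0.14. The 6 within 2-fold were these and the 4 casein kinase 2 genes given above.

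The assembly factors of the large subunit covered a similar range. Of 55 genes of 60S assembly 54 passed 2-fold downwards at 30 min (median -3.48, interquartile range -3.91 to -2.62) and 22 at 60 min (median -0.92). Of all features 17.3% and 4.32% did so. With the 60 min array rescaled, 53 of the 55 were at least 2-fold lower, against 15.9% of all features. NOG1, a GTPase of the pre-60S particle, had -4.50 at 30 min and -0.78 at 60 min. NOP7 had -4.49 and -1.28. At the upper end were DBP6, a helicase, with -1.65 and -0.64, and TIF6, an anti-association factor, with -0.76 and -0.14. The interquartile ranges of the lists for both subunits overlapped at each time, and without replicates the difference between their medians was not tested.

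The ribosomal proteins that these factors assemble were lower by less at 30 min. The 56 genes of 40S ribosomal proteins all passed 2-fold downwards at 30 min, with a median of -2.29 and an interquartile range from -2.53 to -2.14. That range does not overlap the one of the 46 processome genes, which ended at -2.69. Of 80 genes of 60S ribosomal proteins 79 were at least 2-fold lower (median -2.28). At 60 min the medians were -0.66 and -0.67, and 2 genes of each list were at least 2-fold lower, against 4.32% of all features. With the 60 min array rescaled, 43 of the 56 and 59 of the 80 were at least 2-fold lower, against 15.9% of all features. RPS26B had the lowest 30 min value of the 40S proteins, -3.16, with -0.84 at 60 min, and RPS25A the highest, -1.51, with -0.45. Many ribosomal protein genes exist as near-identical pairs whose signal may be shared.

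The genes of the polymerase that makes the precursor, and of its initiation factors, spanned a wide range. Of 11 genes of RNA polymerase I and its factors 9 passed 2-fold downwards at 30 min (median -3.04) and 2 at 60 min (median -0.74). Of all features 17.3% and 4.32% did so. With the 60 min array rescaled, 8 of the 11 were at least 2-fold lower, against 15.9% of all features. The subunit genes RPA43 and RPA135 had -4.60 and -3.83 at 30 min, and -1.12 and -0.91 at 60 min. RRN3, the initiation factor that binds the polymerase, had -0.26 and 0.07, and RRN6, of the core factor, had -0.42 and -0.04. The initiation factor genes were not alike, since RRN11 had -3.04 and -0.74 and RRN7 had -1.32 and -0.34.

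The small nucleolar RNAs that work in 18S cleavage were within 2-fold at both times, in contrast to the protein genes at 30 min. At 60 min most of the 46 genes were within 2-fold too. With the 60 min array rescaled to the SD of the 30 min array, 2 of the 5 small nucleolar RNAs were at least 2-fold lower (median -0.96). The U3 genes snR17a and snR17b had -0.59 and -0.48 at 30 min and -0.42 and -0.61 at 60 min. For snR10 the values were -0.40 and -0.72, and for snR128, which is U14, they were -0.15 and -0.51. Their median was -0.40 at 30 min and -0.51 at 60 min. Of the 5, 4 were lower at 60 min than at 30 min, against 3397 of all 6868 features, whereas all 46 protein genes were higher at 60 min. The differences of the 5 ran only from -0.36 to 0.17 and, with 1 array per time, were not tested. How the cDNA synthesis was primed is not stated in the labels. Whether short RNAs without a poly(A) tail were copied as well as mRNAs was not tested.

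**Figure D4:**
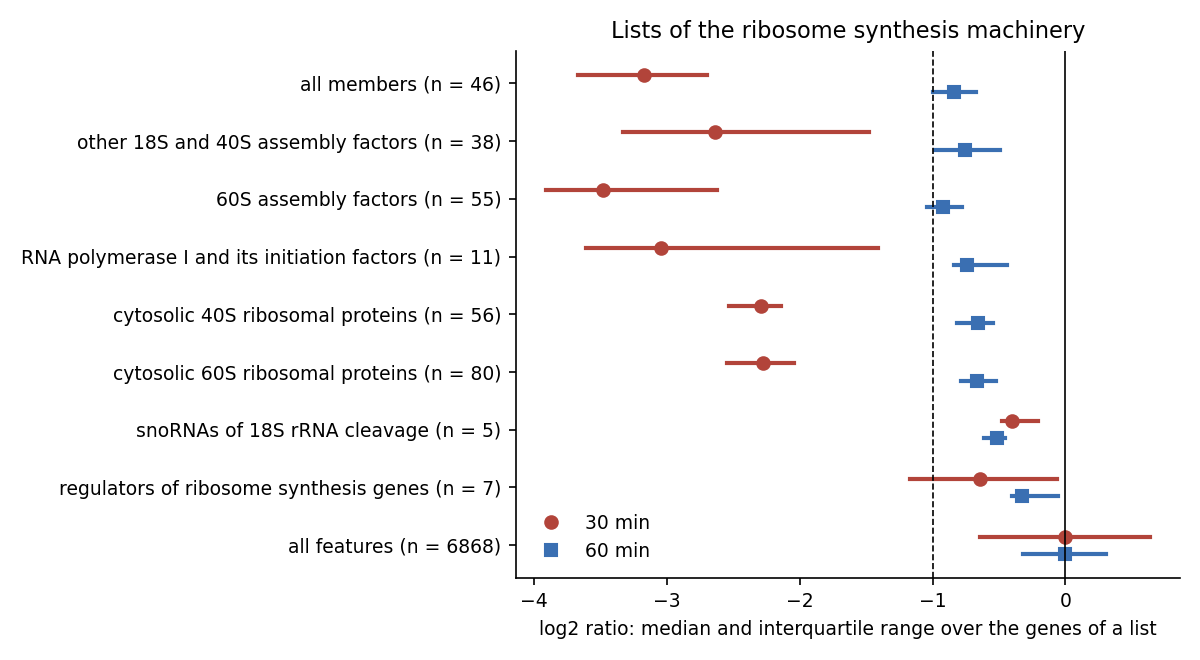
Median (points) and interquartile range over genes (bars) of the log2 ratio (x axis) at 30 min (circles) and 60 min (squares) for the 46 genes (all members), 7 other lists and all features; the bars are not replicate errors and the dashed line marks 2-fold lower. The protein lists with medians from -3.48 to -2.28 at 30 min lie between -0.92 and -0.66 at 60 min, whereas the 5 small nucleolar RNAs lie at -0.40 and -0.51.

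Of the 7 regulators of ribosome synthesis genes listed, 3 were at least 2-fold lower at 30 min, against 17.3% of all features. TOD6, a repressor that binds the PAC element of ribosome biogenesis promoters, had -3.46 at 30 min and -1.22 at 60 min, values like those of the processome genes. Its paralog DOT6 had -0.23 and -0.32. IFH1 had -1.33 and -0.41 and its partner FHL1 had -1.01 and -0.11. The activator SFP1 had 0.10 and 0.13, the kinase gene SCH9 had -0.64 and -0.38, and STB3, a repressor that binds the RRPE element, had 0.62 and -0.01. None of the 7 was at least 2-fold higher at either time, against 15.8% of all features at 30 min and 6.67% at 60 min. For a list of 7 genes this is near those shares.

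Of the 46 genes 17 face a gene on the other strand, start to start, in the reference gene table, and none of these neighbours is itself one of the 46. At 30 min 7 of the 17 neighbours were at least 2-fold lower, against 18.4% of the 3044 genes with such a neighbour. Of the 17, 1 was at least 2-fold higher, against 447 of the 3044. The median of the 17 was -0.21 at 30 min and -0.02 at 60 min. At 60 min all 17 were within 2-fold, as were 2757 of the 3044. The lowest were ribosomal protein genes: RPS18A beside UTP6 had -2.33 at 30 min and -0.71 at 60 min, and RPS10B beside RRP5 had -2.26 and -0.47. SAS2 beside ECM16 had -1.60 and 0.04, ASN1 beside NOC4 had -1.27 and -0.53, and HHO1 beside NAN1 had -1.21 and -0.12. YCG1 beside UTP4 had -1.04 and 0.27, and NCB2 beside UTP5 had -1.01 and -0.31.

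The other 10 neighbours were not at least 2-fold lower. AIP1 beside UTP15 was the one at least 2-fold higher at 30 min, with 1.26 and 0.44 at 60 min, and RPN5, a proteasome subunit beside NOP14, had 0.88 and 0.05. MRPS16, a mitochondrial ribosomal protein gene beside RRP12, had -0.31 and -0.60, against -4.74 and -1.15 for RRP12. SYF2 beside UTP8 had -0.21 and -0.33, TSC13 beside NOP1 had 0.28 and 0.22, and MTC2 beside UTP11 had 0.41 and 0.03. MRPL6 beside IMP3, YPL216W beside BMS1, VIP1 beside UTP21 and ICE2 beside UTP25 lay between -0.06 and 0.14 at 30 min. In all 17 pairs the processome gene was the lower of the pair at both times. At 60 min UTP6 (-0.728) and RPS18A (-0.712) were close. All 17 processome genes were at -2.48 or less at 30 min and at -0.51 or less at 60 min. The 3044 genes with such a neighbour had a median of -0.02 at both times. The order within pairs at either time therefore says little beyond the low values of the 17 genes.

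**Figure D5:**
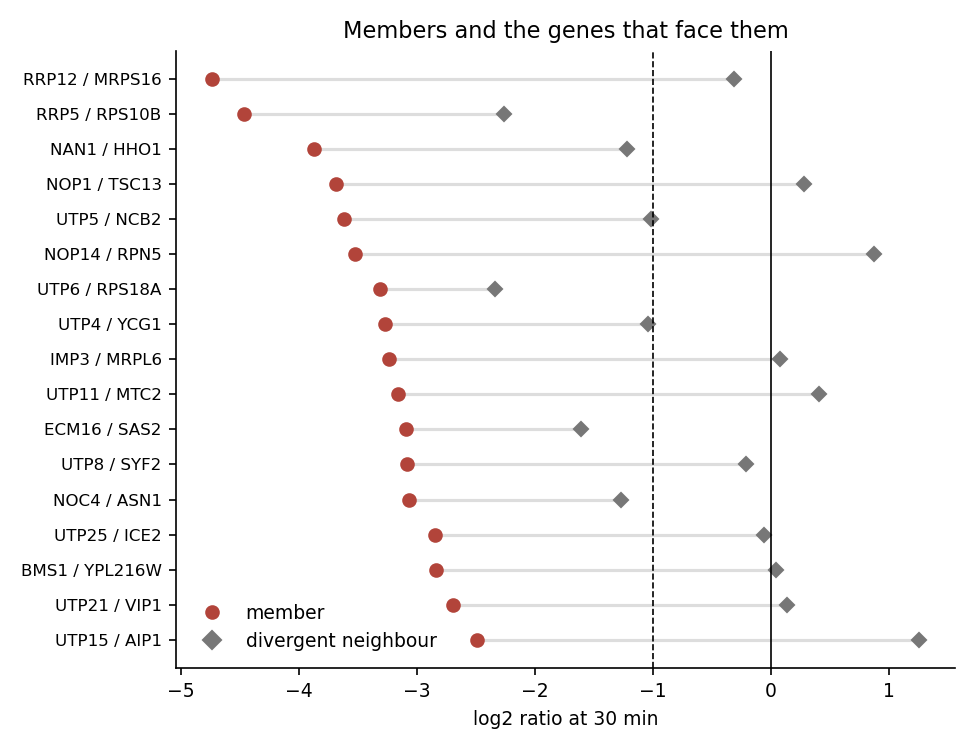
Log2 ratio at 30 min (x axis) of the 17 processome and 40S assembly genes that face a gene on the other strand (circles) and of that gene (diamonds), 1 pair per line, ordered by the processome gene; the dashed line marks 2-fold lower. The neighbours run from -2.33 to 1.26 and each lies to the right of its partner.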

How the data were processed

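The authors deposited a ratio, taken here as a log2 ratio, for each annotated feature on each array, from 2-colour NimbleGen tiling arrays per the labels. No source used here gives the log base, direction, background correction, normalization, probe combination or genome build. Base 2 was assumed from the range of the values. Scanner intensities were not used here. Exactly 0 stands in 63 features at 30 min and 75 at 60 min, 104 on either array, none of them described here; a 0 may be a missing estimate, and these features stayed in the counts over all features. The 46 genes were matched by systematic name, and symbols came from the RefSeq gene table (assembly R64), which holds 5984 of the 6868 features. Strand was read from the W or C of the systematic name.

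Counts past 2-fold, medians, quartiles and differences were computed in Python 3.11.15 with pandas 2.3.3, NumPy 2.4.6 and SciPy 1.17.1, and the counting was tested on simulated data. With 1 array per time no p-value was computed. Alternatives were the threshold, log base, centring, mean and array scale. The genes and lists were chosen with earlier results of these data known. All 46 genes may be named, with the 2 highest and 2 lowest at 30 min of each other list and every regulator, small nucleolar RNA and neighbour, and not all are. RRN7, RRN11 and the other subunits of UtpC were named in addition. RPP1, a subunit of RNase P whose symbol fits the pattern used for 60S ribosomal proteins, was left out of that list. Promoter motifs and sequences were not analysed here.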

Additional observations from a re-analysis of the deposited data

Results flagged for a closer look

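All 46 processome and 40S assembly genes were negative at both times, so none of them changed sign. The share of sign changes over all features was not counted. Of the genes named or listed around the processome, 10 had log2 ratios of opposite sign at 30 and 60 min. With 1 array per time the differences were not tested. Those at least 2-fold from 0 at one time were SAS2, with -1.60 at 30 min and 0.04 at 60 min, YCG1, with -1.04 and 0.27, and the reading frame YPR136C, whose systematic number adjoins that of RRP9, with 1.13 and -0.05. YJL032W, whose number adjoins that of HCA4, had -0.93 and 0.94. The others stayed nearer to 0: STB3 had 0.62 and -0.01, RRN3 -0.26 and 0.07, HRR25 0.21 and -0.14, VIP1 0.14 and -0.15, MRPL6 0.08 and -0.02, and ICE2 -0.06 and 0.08.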

How the results depend on the processing

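The 30 min count of 44 genes and median of -3.17 stayed within 1.5 times under each alternative run: 46 genes at 1.5-fold, 41 at 4-fold, 46 with the values read as natural logs, 44 with each array centred on the features in the reference table, and a mean of -3.15. The 60 min count of 12 did not. It was 41 at 1.5-fold, 0 at 4-fold, 34 with natural logs and 44 with the 60 min array rescaled to the SD of the 30 min array, which also took the 60 min median from -0.84 to -1.57. By construction these settings move the threshold relative to a narrow band of values. Centring gave 11 genes. The median difference between the times was 2.25, and 1.54 after rescaling. The median share of the 30 min log2 ratio left at 60 min was 25.8%, and 48.5% after rescaling, an alternative chosen after the data were seen. The planned motif search was not run. No paired analysis was possible because there is 1 array per time and the labels give no replicate numbers. The number of arrays, not depth, limits every value.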

Other observations

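Among features absent from the reference gene table, 5 carry a systematic number next to that of a processome gene. YOR309C, beside NOP58 and with the same strand letter, had -3.89 at 30 min and -0.66 at 60 min, close to the -3.82 and -0.79 of NOP58 and the lowest 30 min value of 408 such reading frames, whose median was 0.36. YLR198C, with the opposite strand letter to NOP56, had -1.04 and -0.17, against -3.72 and -0.99 for NOP56. YGR160W beside NSR1 had -0.31 and -0.09, against -5.16 and -1.33. Whether these reading frames share probes or transcripts with their neighbours was not tested, since no source used here gives the array's genome build.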
